A study of Mus musculus with 12 samples.

Results

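Expanded tissue-confined clones are groups of at least 3 antibody-secreting cells that share a heavy-chain rearrangement and were found in only 1 of the 6 B cell receptor (VDJ) libraries of the series. A clone was the set of cells with the same heavy-chain V gene, J gene and CDR3 amino acid sequence, among cells with exactly 1 productive heavy-chain contig. The CDR3 is the stretch where V, D and J gene segments are joined, and it forms the centre of the antigen-binding site. Clones found in more than 1 VDJ library (4076 cells) and the remaining clones with IGHV9-3 (95 clones, 163 cells) were left out. The former numbered 838 when each was counted once in every library that held it, so there were fewer distinct clones. This left 246 expanded clones with 1228 cells, out of 3788 clones, counted per library in the same way, and 8415 cells in all. They were compared with 2270 single-cell clones (singletons) of the same libraries, and 339 clones of 2 cells (678 cells) were in neither group. The cells were chosen by clone size, V gene, J gene, CDR3 and detection in 1 library, so these are described and not tested.

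The study profiled antibody-secreting cells (ASCs) of bone marrow, spleen and thymus, with 1 gene expression (GEX) and 1 VDJ library for each tissue of female and of male mice, on the 10x Genomics platform. All mice were 3 months old, on a C57BL/6 background, and carried the Prdm1-eYFP reporter, which marks cells expressing Prdm1, the transcription factor that drives ASC differentiation. Cells were sorted as reporter-positive and CD138-high, negative for IgD and for CD90.2, with or without B220, from pools of 3 mice. Cells of a clone may therefore come from more than 1 mouse, and each tissue of each sex was profiled in 1 pool.

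A B cell builds its heavy chain first and its light chain afterwards, so descendants of a mature B cell share both. After activation a B cell divides, may exchange the constant region of its heavy chain (class switching from IgM to IgG or IgA) and may acquire point mutations in its V segments (somatic hypermutation) before it becomes a plasmablast, which still divides, or a plasma cell, which does not. The light chain, the constant gene, the V segment mutations and the transcriptome were not part of the clone definition.

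Of the GEX libraries of its tissue, each VDJ library shared more barcodes with the library that carries the other sex in its label. The VDJ library labelled female bone marrow shared 96.6% of its 1778 barcodes with the male bone marrow GEX library and 2.14% with the female one. Across the 6 VDJ libraries the linked GEX library held 49.9% to 100% of the barcodes and the library of the same labelled sex 1.36% to 2.21%. Xist and Ddx3y levels of the GEX libraries matched their labelled sex, so libraries are named here by the GEX label. VDJ libraries shared 0 to 11 barcodes with each other, and GEX libraries 24 to 247. In both groups ASC markers summed to between 55178 and 134418 CPM (UMIs scaled to a total of 1e+06 UMIs outside immunoglobulin genes). The 12 T cell markers summed to 3.16 to 44.8 CPM in expanded cells and 10.4 to 36.9 CPM in singletons, with Thy1 and Rag1 at 0. All sums of gene lists use this scale. CPM of single genes were scaled instead to totals that edgeR adjusted for composition (TMM), so they are not on the scale of the sums.

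The expanded clones were small. Of the 246, 103 held 3 cells, 60 held 4, 83 held 5 or more and 15 held 10 or more. Female bone marrow held 29 expanded clones (143 cells) and male bone marrow 50 (329 cells). The spleen held 44 (190 cells) in females and 43 (194 cells) in males, and the thymus 26 (134 cells) and 54 (238 cells). The largest, of male bone marrow, had 88 cells, which was 26.7% of the expanded cells there. Among the expanded clones 53.7% used an IGHV1 family gene, beside 54.6% of singletons, and the median CDR3 length was 12 amino acids in both groups. Just inside the size threshold, cells of 3-cell clones were 64.7% IgM and 21.4% IgG with 51.1% of V segments unmutated. Just outside it, cells of 2-cell clones were 64.01% IgM and 17.7% IgG with 59.4% unmutated.

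The largest clone of each library is given by its commonest CDR3 nucleotide sequence, as read in the deposited contigs, from the codon of the conserved cysteine to that of the conserved tryptophan. Capitals mark the longest stretch shared with a germline D gene, and the letters around it hold V and J ends and the junctions.

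Male bone marrow IGHV1-66 IGHJ4, 88 cells: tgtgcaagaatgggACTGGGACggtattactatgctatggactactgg

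Female bone marrow IGHV1-72 IGHJ4, 24 cells: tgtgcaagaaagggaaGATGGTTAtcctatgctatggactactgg

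Female spleen IGHV6-3 IGHJ3, 13 cells: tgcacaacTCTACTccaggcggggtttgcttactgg

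Male spleen IGHV1-62-2 IGHJ2, 12 cells: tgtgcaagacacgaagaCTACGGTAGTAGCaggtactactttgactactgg

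Female thymus IGHV1-9 IGHJ2, 11 cells: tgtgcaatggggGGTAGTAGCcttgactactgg

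Male thymus IGHV1-80 IGHJ3, 19 cells: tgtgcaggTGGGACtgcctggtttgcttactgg

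These clones differed in how uniform their cells were. The male thymus IGHV1-80 clone was a single sequence: all 19 cells were IgM, all 19 had the same IGKV10-96 light chain, and every V segment differed from the germline gene at the same count of 7 bases. The female bone marrow IGHV1-72 clone was the opposite in its heavy chain, with 24 different V(D)J sequences in 24 cells, 0 to 13 mismatches to germline and a mean of 5.5, while 22 of 22 cells with 1 light chain contig used IGKV3-4, 21 of them with the same light chain. The IGHV1-62-2 clone of male spleen had 11 of 12 V segments without a mismatch and 1 light chain in 11 of 11 cells. All 11 cells of the female thymus IGHV1-9 clone were unmutated IgM, but none of them passed the GEX quality filter, and its 10 cells with 1 light chain contig used IGLV2 (7 cells), IGKV4-61 (2) and IGKV6-23 (1). Germline IGHV1-66, the V gene of the largest clone, lies at chr12:115593110-115593591 on the minus strand (GRCm38, GENCODE M21 annotation), within the immunoglobulin heavy-chain locus.

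In 28 clones the cells encoded the same CDR3 amino acids with more than 1 nucleotide sequence. The 4 sequences of the 88-cell clone and the 4 of a male spleen IGHV1-54 IGHJ2 clone of 11 cells are given because they show what separates cells within a clone. Here capitals mark the positions that differ within the clone.

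IGHV1-66, 77 cells: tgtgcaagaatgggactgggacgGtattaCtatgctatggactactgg

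IGHV1-66, 7 cells: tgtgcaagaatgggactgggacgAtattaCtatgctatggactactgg

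IGHV1-66, 3 cells: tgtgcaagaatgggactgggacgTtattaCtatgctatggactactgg

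IGHV1-66, 1 cell: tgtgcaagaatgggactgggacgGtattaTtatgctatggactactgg

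IGHV1-54, 8 cells: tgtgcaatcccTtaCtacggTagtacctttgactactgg

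IGHV1-54, 1 cell: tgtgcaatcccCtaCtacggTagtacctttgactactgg

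IGHV1-54, 1 cell: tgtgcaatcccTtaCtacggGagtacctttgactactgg

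IGHV1-54, 1 cell: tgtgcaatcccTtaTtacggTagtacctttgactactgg

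Each rarer sequence differed from the commonest of its clone at 1 position. An IGHV7-1 IGHJ1 clone of male bone marrow differed more: 17 of its 18 cells shared a sequence and the remaining cell differed from it at 4 positions. The clone rule needs identical CDR3 amino acids, so near-identical CDR3s count as separate clones. In the same library, 49 of the 246 expanded clones had another clone of the same V gene, J gene and CDR3 length that differed by 1 amino acid, and so had 132 of the 2270 singletons (5.81%).

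Light chains, which the rule did not use, were shared far more often within expanded clones than between clones, but not by all cells of a clone. Over cells with exactly 1 light chain contig, 57.1% of 5330 pairs from the same expanded clone had the same light chain (V gene, J gene and CDR3), against 0.719% of pairs from different clones of a library, singletons included. Male bone marrow gave 3364 of the 5330 pairs within clones, most of them from its IGHV1-66 clone. In that library 50.3% of the pairs had the same light chain. In the other libraries the share ran from 44.4% in female thymus to 81.5% in male spleen. All cells of a clone with 1 light chain contig had 1 light chain in 99 of the 230 clones with at least 2 of them. The count was 23 of 41 clones in male and 11 of 25 in female bone marrow, 26 of 43 and 20 of 44 in spleen, and 13 of 51 and 6 of 26 in thymus. In this count the thymus was lowest in both sexes. That order was not tested, and it did not hold in the cells described next.

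Light chains were also checked against the GEX profile of the same barcode. In cells that passed the GEX filter and whose leading light V gene there matched the contig, 109 of 170 clones (64.1%) had 1 light chain and 61 held more than 1. By tissue the count was 26 of 33 in male and 11 of 23 in female bone marrow, 27 of 40 and 22 of 43 in spleen, and 17 of 22 and 6 of 9 in thymus. Among the female libraries the thymus then had the highest share, 66.7%, and in males its 77.3% was above the 67.5% of spleen and below the 78.8% of bone marrow. These cells numbered 739 of 1055, with 31 in female and 71 in male thymus. A clone with fewer cells left has fewer chances to show another light chain. By pairs, 60.1% of 3825 had the same light chain, beside 57.1% in all cells with 1 light chain contig. Male bone marrow gave 2742 of the 3825 pairs, with a share of 54.1%. In the other libraries the share ran from 64.2% in female spleen to 87.1% in male thymus.

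**Figure D1:**
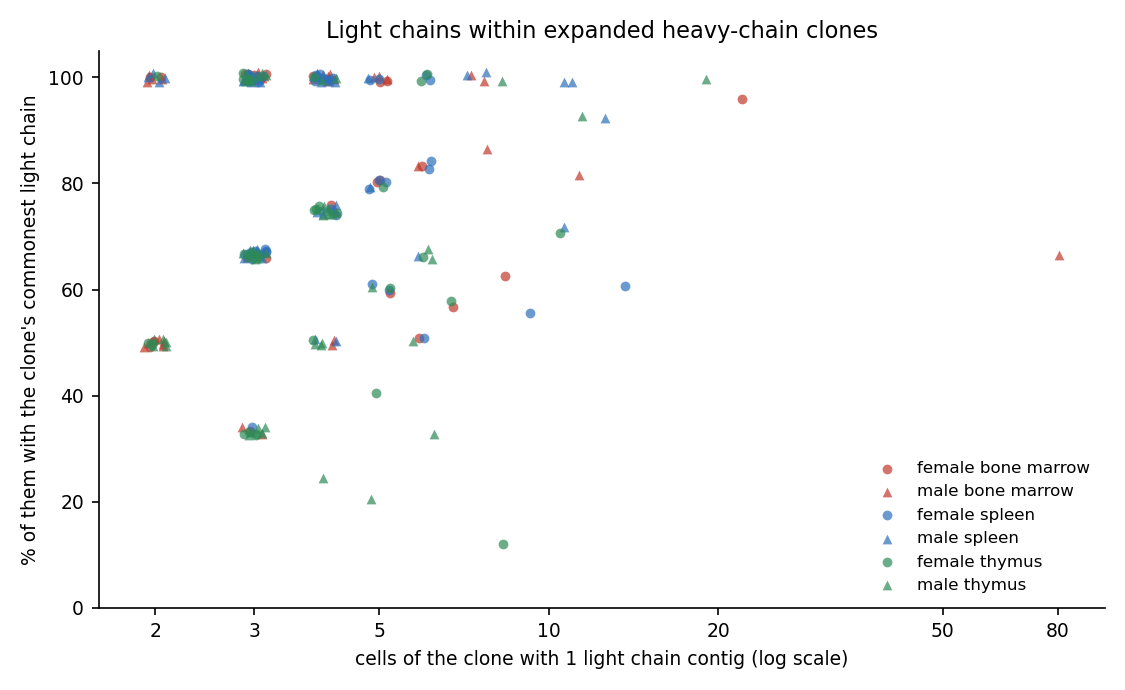
Each point is an expanded clone. The x axis (log scale) gives its cells with 1 light chain contig, and the y axis the percentage of these that carried the clone's commonest light chain, with small random shifts to separate points. In 99 of 230 clones all these cells had 1 light chain (points at 100%). The rightmost point is the IGHV1-66 clone of male bone marrow, where 53 of 79 cells had the commonest light chain.

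Different light chains within a clone shared their V gene more often than those of different clones did. Counted by clone, 45 of the 131 with more than 1 light chain (34.4%) used 1 light V gene, and 39 of 61 (63.9%) in cells with a matching GEX light V gene. Of 2288 such pairs within expanded clones, 76.9% shared the light V gene, against 3.96% of pairs with different light chains from different expanded clones. The 88-cell IGHV1-66 clone carried most of these pairs: its 79 cells with 1 light chain contig had 10 light chains, and 77 of the cells used IGKV3-4. Those IGKV3-4 chains were joined to IGKJ2 in 53 cells of the commonest chain and to IGKJ1 in 13 and 6 cells of the next 2. Without the largest clone of each library the shares were 41.1% of 574 pairs within clones and 3.15% between clones, and 22.6% of the pairs within clones had the same V gene with another J gene, against 2.11% between clones.

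By library the share of pairs ranged widely. Within clones of female and male bone marrow 83.2% and 88.9% of pairs with different light chains had the same light V gene, and in female and male spleen 58.7% and 65.1%. The thymus had 11.6% in females and 22.1% in males, beside 3.11% and 2.26% between clones there. The male bone marrow value rests on the IGHV1-66 clone: without it the share was 51.6% (32 of 62 pairs), and by clone 5 of 17 (29.4%) used 1 light V gene, beside 7 of 38 (18.4%) in male thymus. In cells with a matching GEX light V gene 6 of 7 male bone marrow clones did. In those cells 4 of 8 pairs of male thymus and 0 of 4 of female thymus shared the V gene, too few to order the tissues. The IGHV6-3 IGHJ3 clone of female spleen shows light chains of 1 V gene, with IGKV1-117 in 12 of 13 cells, joined to IGKJ5 in 8, to IGKJ4 in 2 and to IGKJ2 in the others. The IGHV5-4 IGHJ2 clone of female bone marrow had IGKV8-30 in 8 of 8 cells, in 3 light chains. In contrast, a female thymus IGHV2-2 IGHJ3 clone of 9 cells, picked after its values were seen, had 8 different light chains in 8 cells, from 6 light V genes. Only 3 of its cells passed the GEX filter. Its CDR3 was nearly all germline letters, with 1 base outside the V, D and J matches, and capitals mark the D gene stretch.

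Female thymus IGHV2-2 IGHJ3, 9 cells: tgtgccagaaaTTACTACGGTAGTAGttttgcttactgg

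Constant genes were more uniform than light chains. Of cell pairs within an expanded clone 92.3% had the same constant gene, against 56.4% of pairs from different expanded clones of a library. Male bone marrow gave 2097 of the 4199 pairs within clones. By library the shares were 95.2% against 83.0% in female and 97.2% against 79.0% in male bone marrow. They were 80.6% against 18.5% and 76.4% against 52.2% in spleen, and 98.6% against 40.8% and 89.1% against 46.4% in thymus. In 195 of 245 clones all cells with a constant gene had the same one, which was IgM in 139, an IgG subclass in 36 and IgA in 20. The other 50 clones mixed constant genes, and 35 of them included IgM. The mixed clones numbered 17 of 44 in female and 11 of 43 in male spleen, 1 of 26 in female and 17 of 54 in male thymus, and 1 of 29 in female and 3 of 49 in male bone marrow. The IGHV1-54 clone of male spleen had 4 constant genes in 11 cells, 5 cells with IgM and 6 with IgG.

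Isotype shares of cells differed between expanded clones and singletons in single libraries, in directions that varied between libraries. Differences between tissues were not tested. In bone marrow IgA, the isotype of mucosal responses, was lower in expanded cells: 5.59% (8 of 143 cells, exact 95% interval 2.45% to 10.7%) against 26.1% of singletons (21.2% to 31.5%) in females, and 2.74% (1.26% to 5.13%) against 13.2% (9.63% to 17.6%) in males. In spleen IgG was higher in expanded cells, at 57.9% (50.5% to 65.0%) against 33.2% (28.9% to 37.7%) in females and 24.7% (18.8% to 31.4%) against 11.3% (9.17% to 13.6%) in males. IgM in female spleen was 24.2% of expanded cells and 53.1% of singletons, and in male spleen 71.1% and 82.4%. In bone marrow it was 88.1% and 61.4% in females and 75.7% and 74.2% in males. All cells are the denominator of these shares, also those with no constant gene assigned. In male bone marrow the latter were 15.2% of expanded cells and 6.62% of singletons, and in female bone marrow 3.50% and 2.71%. The intervals cover counting error only, and cells of a clone are not independent, so they are too narrow.

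In thymus the sexes went opposite ways. Female thymus had 26.1% IgA in expanded cells against 12.9% of singletons and 11.9% IgG against 18.6%, while male thymus had 8.40% IgA against 18.6% and 22.7% IgG against 14.8%. The IgG of female spleen was mainly IGHG2B, at 25.8% of expanded cells against 13.7% of singletons, and IGHG2C, at 17.9% against 11.3%. Over the 6 libraries no isotype passed a test. The mean difference in IgG share was 5.54 percentage points ± 12.4 (SD, n = 6; higher in 4 of 6; exact two-sided sign-flip permutation p = 0.3125, adjusted p = 1 over 22 measures). It was -3.46 ± 12.4 for IgA (exact permutation p = 0.5, lower in 3 of 6) and -1.64 ± 18.5 for IgM (exact permutation p = 0.78125, lower in 3 of 6), with adjusted p = 1 for both. Without female spleen the IgG difference was 1.70. Leaving out 1 library moved the IgA difference between -6.80 (female thymus left out) and -0.053 (female bone marrow left out). The smallest p this design allows is 0.03125. A single measure at that p would not pass 0.05 after adjustment over 22 measures. The adjusted values therefore cannot show that a share does not differ.

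**Figure D2:**
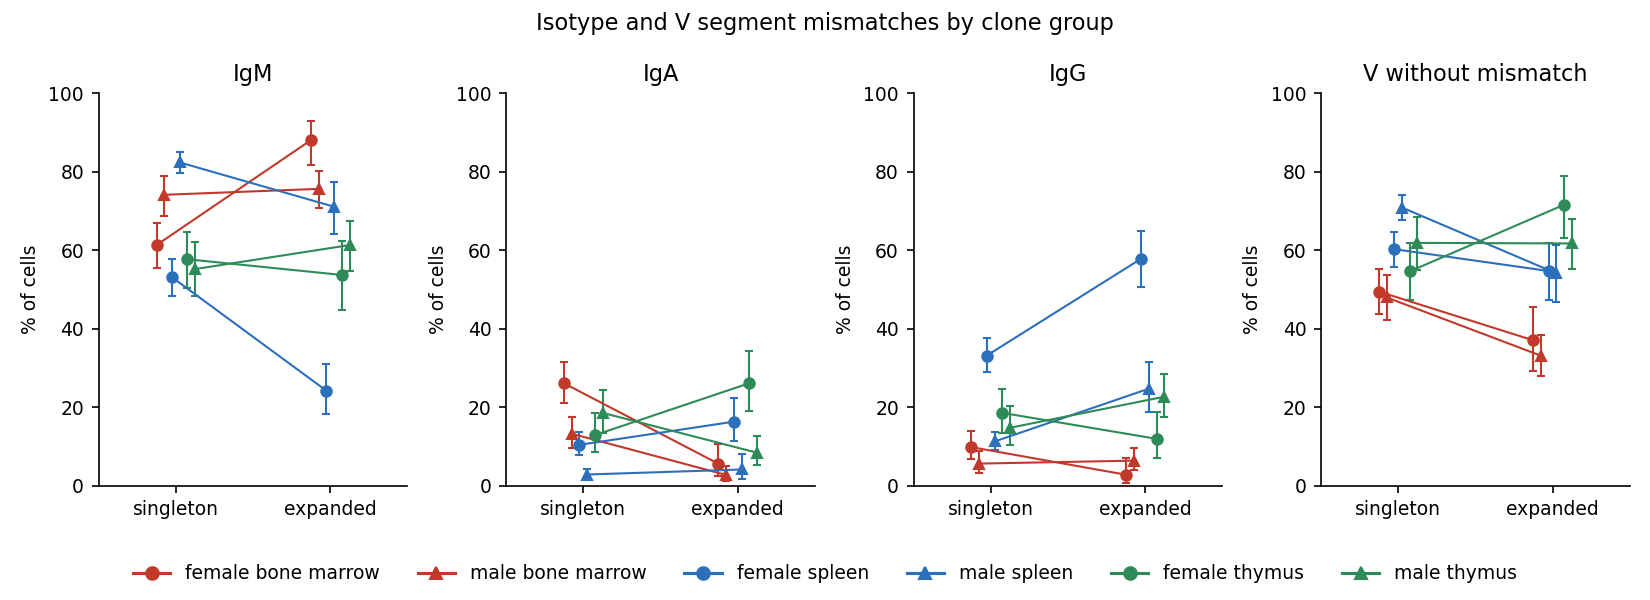
Percentage of cells (y axes) with IgM, IgA or IgG constant genes and with a V segment without mismatch to germline, in singletons and expanded clones. Each line is a library and bars are exact 95% binomial intervals. In bone marrow IgA is 26.1% and 13.2% in singletons and 5.59% and 2.74% in expanded clones, and in spleen IgG is 33.2% and 11.3% and then 57.9% and 24.7%. No isotype passed the test over 6 libraries, in which a single measure could not pass after adjustment over 22 measures.

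V segment mismatches to the germline V gene assigned to the contig, a measure of somatic hypermutation, were added after the files were seen. No other V gene was searched for a closer match, so an allele difference or a misassigned gene also counts as mismatches. In the 88-cell IGHV1-66 clone 1 cell had 38 mismatches. The share of cells with no mismatch was lower in expanded than in singleton cells of bone marrow, at 37.1% against 49.5% in females and 33.1% against 48.0% in males, and of spleen, at 54.7% against 60.3% and 54.1% against 70.9%. It was 71.6% against 54.6% in female and 61.8% against 61.9% in male thymus. The mean difference was -5.47 percentage points ± 12.6 (SD, n = 6; lower in 5 of 6; exact permutation p = 0.34375, adjusted p = 1). Leaving out 1 library moved it between -9.96 (female thymus left out) and -3.20 (male spleen left out). Among IgM cells of all libraries, 49.7% of 777 expanded and 67.6% of 1544 singleton cells were unmutated. Female thymus was the exception, with 70.8% against 58.9%. Among IgG cells the pooled shares were 56.9% of 253 and 45.4% of 357, while male bone marrow had 0% of 21 expanded and 17.6% of 17 singleton cells. By clone, 104 of the 246 expanded clones had only unmutated cells, 95 had only mutated cells and 47 had both, and in 129 every cell had the same V(D)J sequence.

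The choice of light chain class and the recovery of chains did not differ beyond the spread between libraries. Lambda chains made up 5.06% to 23.2% of the light chains of expanded cells and 8.02% to 16.5% of those of singletons (mean difference -0.173 percentage points ± 3.75, n = 6, exact permutation p = 0.90625, adjusted p = 1). The share of cells with no light chain was 0.53% to 27.4% and 2.17% to 29.8%, and the median UMI count per heavy-chain contig was 24 to 736 and 15.5 to 737.5. Both extremes of depth were in the same libraries, female thymus at the low end and male bone marrow at the high end. The smallest p of the 22 measures was that of the share of a cell's GEX light V UMIs that came from its leading light V gene. Its median was higher in expanded cells in 5 of 6 libraries, by 10.6 percentage points ± 14.3 on average (exact permutation p = 0.0625, adjusted p = 1). Female thymus alone differed by 39.1 points, and without it the mean was 4.92.

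Gene expression was compared in cells that passed the GEX filter, 909 expanded cells of 225 clones and 1899 singletons, after leaving out 427 immunoglobulin genes. Counts were summed per library and group, which gave 66983 to 1365147 UMIs per sum of expanded cells and 135459 to 3455462 of singletons. In thymus the filter left 39 and 98 expanded cells of the 134 and 238. Median UMIs outside immunoglobulin genes per cell were 1377 to 6710 in expanded cells and 1099 to 7282.5 in singletons, lower in expanded cells in 4 of 6 libraries (exact permutation p = 0.28125).

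Few genes differed between expanded clones and singletons past the test. Of 7809 genes tested, 7 (0.0896%) passed an adjusted p of 0.05 in edgeR's quasi-likelihood test with library as a block and Benjamini-Hochberg adjustment, 2 higher (0.0256%) and 5 lower (0.064%) in expanded cells. At an unadjusted p under 0.05 there were 428 (5.48%), 2.41% of the genes higher and 3.07% lower. The median log2 fold change of all genes was -0.0022. Among 1465 genes with a mean of at least 100 CPM the largest absolute log2 fold change was 0.75, with a median standard error of 0.12. In simulated counts for this comparison (7702 genes tested, 200 of them given a log2 change of 1.5), 95% of the altered genes were recovered, with 8 false calls. Smaller changes were not simulated. All sums were drawn from 1 common profile without differences between libraries, and altered genes had a mean of at least 10 CPM. The recovery therefore does not cover genes of lower level or libraries that differ.

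**Figure D3:**
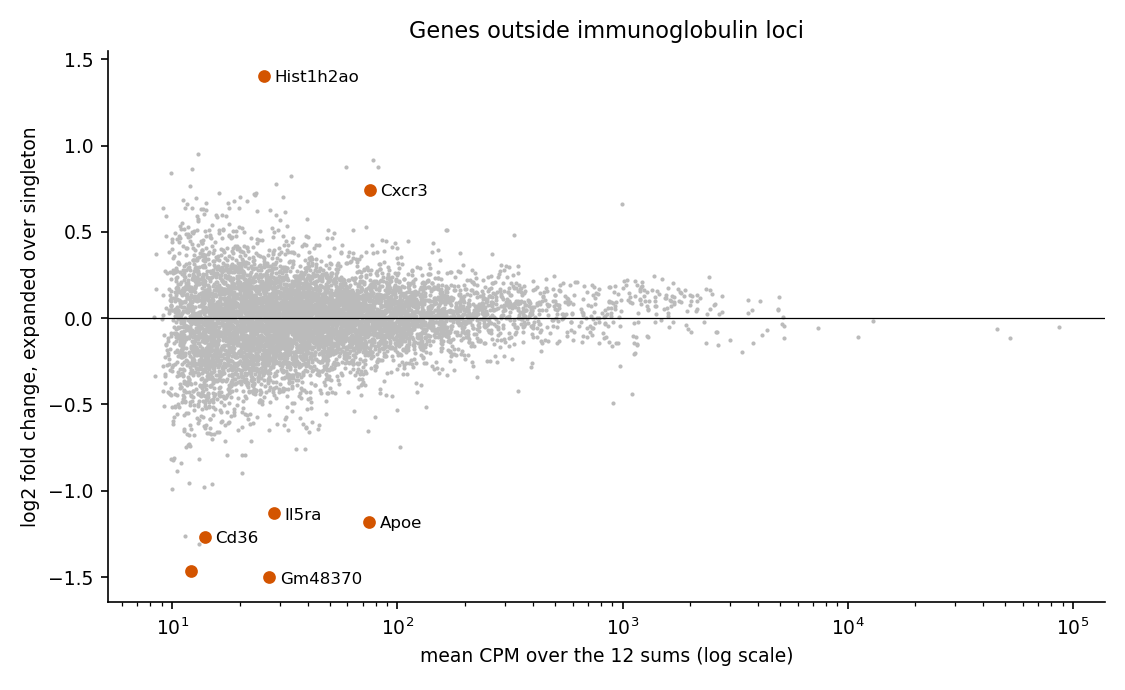
Log2 fold change of expanded over singleton cells (y axis) against the mean CPM over the 12 sums (x axis, log scale) for the 7809 genes tested. Orange points are the 7 genes with an adjusted p under 0.05, of which Gm48370, Cd36, Apoe and Il5ra lie below 0 and Cxcr3 and Hist1h2ao above.

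The genes that fell in expanded clones included a cytokine receptor, genes of lipid handling and a noncoding RNA. Il5ra encodes the specific chain of the interleukin-5 receptor, a cytokine receptor of B-1 cells and ASCs. It ranged from 0 to 36.0 CPM in expanded cells (median 13.3) and from 26.2 to 77.8 CPM in singletons (median 32.9), and it was lower in the 5 libraries where expanded cells held UMIs of it (log2 fold change -1.13, SE 0.23, edgeR adjusted p = 0.0478). In male thymus the values were 18.0 and 77.8 CPM, and in male spleen 36.0 and 51.7 CPM, so the groups overlap across libraries. Leaving out a library gave an adjusted p of 0.239 (female bone marrow), 0.384 (male bone marrow), 0.122 (female thymus) and 0.0643 (male thymus). The Il5ra call was lost in 17 of 25 alternatives in all. Among them were IgM cells alone (-0.90, edgeR adjusted p = 0.434), clones of at least 2 cells (-0.75, 0.106), DESeq2 (0.159), and fits without the largest clones (0.150) or with clones defined also by light chain (0.146).

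Cd36, a scavenger receptor that takes up fatty acids, was at 0 to 17.8 CPM in expanded cells (median 3.77) and 9.85 to 34.7 CPM in singletons (median 18.5), lower in the 5 libraries with UMIs in expanded cells (log2 fold change -1.27, SE 0.25, edgeR adjusted p = 0.0478). Leaving out a library gave an adjusted p of 0.133 (female bone marrow), 0.287 (male bone marrow), 0.357 (male spleen) and 0.0827 (female thymus), and the Cd36 call was lost in 10 of 18 alternatives in all, DESeq2 among them (adjusted p = 0.269). The log2 fold change of Cd36 was between -1.60 and -1.16 in the 18 alternatives. In female thymus the 66983 UMIs of the expanded cells held none of Cd36, Il5ra or Gm48370. This allows up to 44.8 CPM of that unadjusted total. Singletons there held 3, 4 and 4 UMIs (21.9, 29.3 and 29.3 CPM), so no direction can be read for these genes in that library. Gm48370, a long intergenic noncoding RNA annotated at chr14:9400624-9459180 on the plus strand (GRCm38), had 0 to 33.1 CPM (median 8.06) against 18.8 to 72.6 CPM (median 32.5), lower in the other 5 libraries (log2 fold change -1.50, SE 0.21, edgeR adjusted p = 7.9e-04). Its call was lost with at most 3 cells per clone (-1.35, adjusted p = 0.0894) and with clones defined also by light chain (-1.02, adjusted p = 0.128).

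Apoe encodes apolipoprotein E, a lipid carrier that macrophages make in quantity. It was at 11.2 to 128.2 CPM in expanded cells (median 30.6) and 21.5 to 242.7 CPM in singletons (median 63.3), lower in 6 of 6 libraries (log2 fold change -1.18, SE 0.16, edgeR adjusted p = 7.9e-04). The widest gap was in male bone marrow, with 11.2 against 66.9 CPM, where the 84 singleton UMIs came from 18 of 245 cells. Female thymus held only 2 and 8 UMIs. Pooled over libraries, 11.1% of expanded cells and 14.5% of singletons held Apoe UMIs, while in male spleen 34 of 176 and 114 of 761 cells did. Apoe UMIs were uneven among clones: 73 of the 144 in expanded cells of female spleen came from a clone of 5 cells with IGHV1-62-2 and IGHJ1. A list of 12 macrophage markers that includes Apoe was also summed. The sum was 42.6 to 174 CPM in expanded cells and 73.8 to 271 CPM in singletons, lower in 5 of 6 libraries. Apoe made up most of it in spleen singletons, with 640 of 788 UMIs in females and 476 of 725 in males. The sum therefore largely repeats Apoe there, and the other markers were not summed alone. The part of macrophage RNA in the result was not tested. Of the 3 list genes tested, 1 was higher and 2 lower, and Apoe was the 1 called. The Apoe log2 fold change was -0.46 (edgeR adjusted p = 0.712) with clones of at least 2 cells counted as expanded, -0.83 (adjusted p = 0.286) with at least 5 cells, -0.69 (adjusted p = 0.460) with IGHV9-3 clones kept and -1.25 (adjusted p = 0.0618) with clones defined also by light chain. Leaving out any 1 library did not end the call.

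Cxcr3 and Hist1h2ao rose. Cxcr3, the receptor for interferon-induced chemokines, was higher in expanded cells of 5 of 6 libraries. In bone marrow it was at 60.0 against 40.3 CPM in females and 52.9 against 31.9 CPM in males, and in spleen at 204.8 against 120.6 and 115.3 against 51.0 CPM. The thymus had 25.1 against 58.5 CPM in females (2 and 8 UMIs) and 75.2 against 70.0 CPM in males (log2 fold change 0.74, SE 0.14, edgeR adjusted p = 0.0407). In male bone marrow 37 of the 66 Cxcr3 UMIs came from the IGHV1-66 clone, which had 80 of the 283 cells. Without both thymus libraries the log2 fold change was 0.85 (edgeR adjusted p = 1.8e-04), without male spleen 0.60 (edgeR adjusted p = 0.357), and leaving out female spleen, female bone marrow or male bone marrow gave an adjusted p of 0.344, 0.133 and 0.269. Among IgM cells alone it was 0.57 (edgeR adjusted p = 0.813) and among IgG cells alone 0.29 (edgeR adjusted p = 1). The Cxcr3 call was lost in 14 of 27 alternatives, among them DESeq2 (adjusted p = 0.981), at most 3 cells per clone (0.872) and without the largest clone of each library (0.150).

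Hist1h2ao, a histone H2A gene expressed during DNA replication, was at 2.40 to 123 CPM in expanded cells (median 21.4) and 3.19 to 21.9 CPM in singletons (median 14.4), higher in 4 of 6 libraries (log2 fold change 1.40, SE 0.27, edgeR adjusted p = 0.0450). Histone genes are near-identical copies, so the assignment of its UMIs to this copy is uncertain. Pooled over libraries, its UMIs were in 2.97% of expanded cells and 2.42% of singletons. A clone of 5 cells with IGHV1-26 and IGHJ2 gave 29 of the 41 UMIs in expanded cells of male thymus, and without that library the adjusted p was 0.145. It was between 0.0608 and 0.261 without female bone marrow, female spleen, male spleen or female thymus. The Hist1h2ao call was lost in 13 of 23 alternatives. The log2 fold change was 0.76 with multi-library clones kept (edgeR adjusted p = 0.122) and 0.87 with clones defined also by light chain (0.628). The adjusted p was 0.237 in cells with 1 light chain contig, 0.389 without the largest clones and 0.811 with DESeq2.

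**Figure D4:**
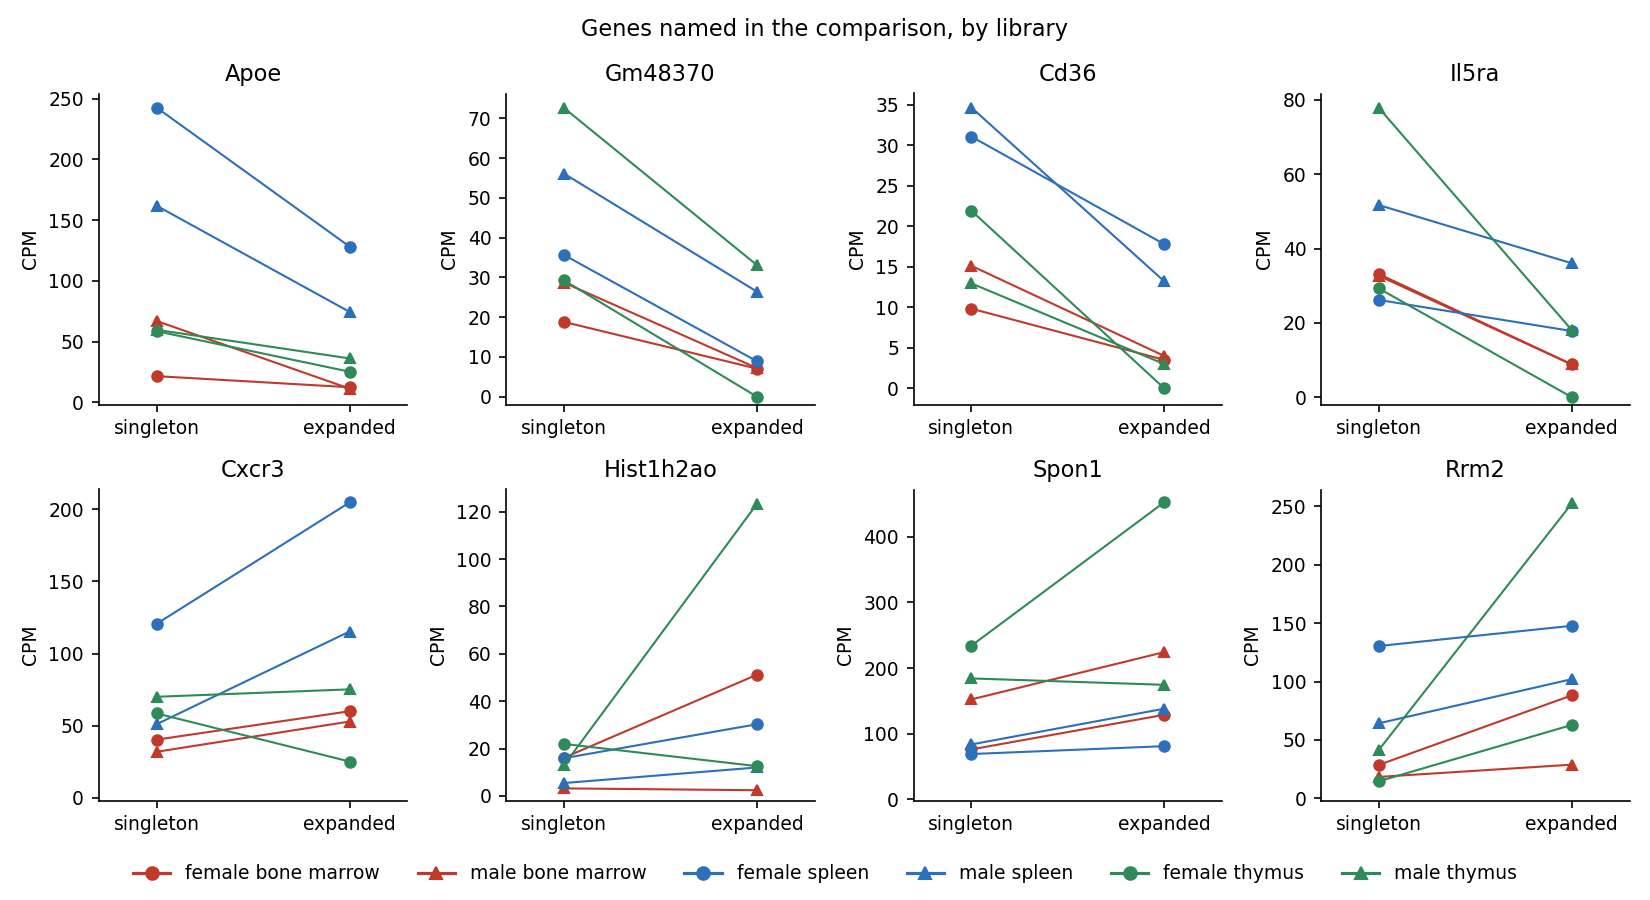
Level in CPM (y axes) of 6 genes that passed and of Spon1 and Rrm2, which did not, in the summed singleton and expanded cells of each library. Each line is a library. Apoe is lower in expanded cells of 6 of 6 libraries, Gm48370, Cd36 and Il5ra in the 5 where expanded cells held UMIs (the points at 0 are female thymus), and Cxcr3 is higher in 5 of 6.

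The genes with the next smallest p among those higher in expanded cells did not pass. Spon1, which encodes the secreted matrix protein spondin 1, was at 81.0 to 452.7 CPM (median 156) against 69.0 to 234.1 CPM (median 118), higher in 5 of 6 libraries (log2 fold change 0.51, SE 0.12, edgeR adjusted p = 0.167). Its UMIs were spread over 155 of the 225 expanded clones. Rrm2, the regulated subunit of ribonucleotide reductase, was higher in 6 of 6 libraries, at 28.8 to 252.6 CPM against 14.6 to 130.5 CPM (log2 fold change 0.87, SE 0.19, edgeR adjusted p = 0.120). Stmn1, which destabilises microtubules in dividing cells, was at 0.88 on the log2 scale (SE 0.21, edgeR adjusted p = 0.186). Rrm2 and Stmn1 passed with clones of at least 2 cells (edgeR adjusted p = 0.0228 and 0.0344) and of at least 5 (0.0036 and 0.0032), and Rrm2 without female spleen (0.0169). Spon1 passed without male thymus (0.0082) and with clones of more than 1 VDJ library kept (0.0018).

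In the summed counts, genes of cell division leaned the same way as Rrm2, with no gene passing the adjusted threshold. All 15 tested genes of a list of 20 S-phase genes had a positive log2 fold change, 6 at an unadjusted p under 0.05, with a median of 0.24 against -0.0022 for all genes. The summed S-phase level was higher in expanded cells of 6 of 6 libraries, from 416 against 356 CPM in male bone marrow to 851 against 391 CPM in female thymus. It includes Mcm2 (log2 fold change 0.64) and Mcm7 (0.50), subunits of the replicative helicase, and Tyms (0.51), the thymidylate synthase. Of the G2 and mitosis list 15 of 18 tested genes were positive, 4 at an unadjusted p under 0.05, with a median of 0.37, and the sum was higher in 5 of 6 libraries. Those 4 were the cyclin Ccna2 (0.83), the spindle checkpoint target Cdc20 (0.72), the chromosomal passenger Birc5 (0.57) and the kinase Cdk1 (0.57). The exception was male spleen, with 707 CPM in expanded cells and 1019 CPM in singletons. Without that library the median of the list was 0.63, with 12 of 18 tested genes at an unadjusted p under 0.05. Without female bone marrow it was 0.30, with 1 of 19. By isotype the fits rest on different libraries, and no difference between isotypes was tested. In IgG cells alone (4 libraries) 0 of 7 tested genes of this list were positive, 4 at an unadjusted p under 0.05 (median -0.74), while in IgM cells (6 libraries) 4 of 4 (median 0.44) and in IgA cells (2 libraries) 4 of 4 (median 2.03) were. The summed level in IgM cells was higher in expanded clones of 4 libraries and lower in male spleen (406 against 802 CPM) and male thymus (194 against 574 CPM). In IgA and IgG cells together the sum was lower in expanded cells of male bone marrow (307 against 1144 CPM), female spleen (994 against 1188 CPM) and male spleen (1289 against 2206 CPM), and higher in female (250 against 144 CPM) and male thymus (2375 against 855 CPM). Of the S-phase list, 2 of 4 tested genes were positive in IgG cells (median -0.08), 12 of 12 in IgM cells (0.41) and 2 of 2 in IgA cells (0.95). The S-phase sum was lower in expanded IgM cells of male thymus (406 against 717 CPM) and higher in those of the other libraries. In IgA and IgG cells it was lower in female spleen (497 against 779 CPM) and higher in the other libraries summed.

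In bone marrow and male thymus single clones held most of the Rrm2 UMIs, and in spleen they were spread more widely. In male thymus 64 of 84 Rrm2 UMIs of expanded cells came from a clone with IGHV2-2 and IGHJ1, of which 3 cells passed the filter. In female bone marrow 36 of 50 came from an IGHV5-4 IGHJ2 clone with 5 such cells, and in male bone marrow 31 of 36 from the IGHV1-66 clone. In female spleen the leading clone had 54 of 166, with UMIs in 23 of 44 clones, and in male spleen 38 of 85. Ccna2 UMIs were in 2 of 98 cells of male thymus (34 UMIs) and in 17 of 44 clones of female spleen, where the leading clone had 17 of 70. Pooled over libraries, Rrm2 UMIs were in 10.6% of expanded cells and 9.32% of singletons, and Ccna2 UMIs in 4.29% and 4.84%. Whether expanded clones held a larger share of dividing cells was not tested. Without the largest clone of each library the G2 and mitosis list had 6 of 14 tested genes positive (median -0.11) and the S-phase list 13 of 14 (median 0.20). With at most 3 cells from each clone 1 of 10 and 3 of 9 were positive (medians -0.47 and -0.04), with 4 and 0 genes at an unadjusted p under 0.05. In clones of at least 5 cells the medians were 0.75 and 0.27.

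**Figure D5:**
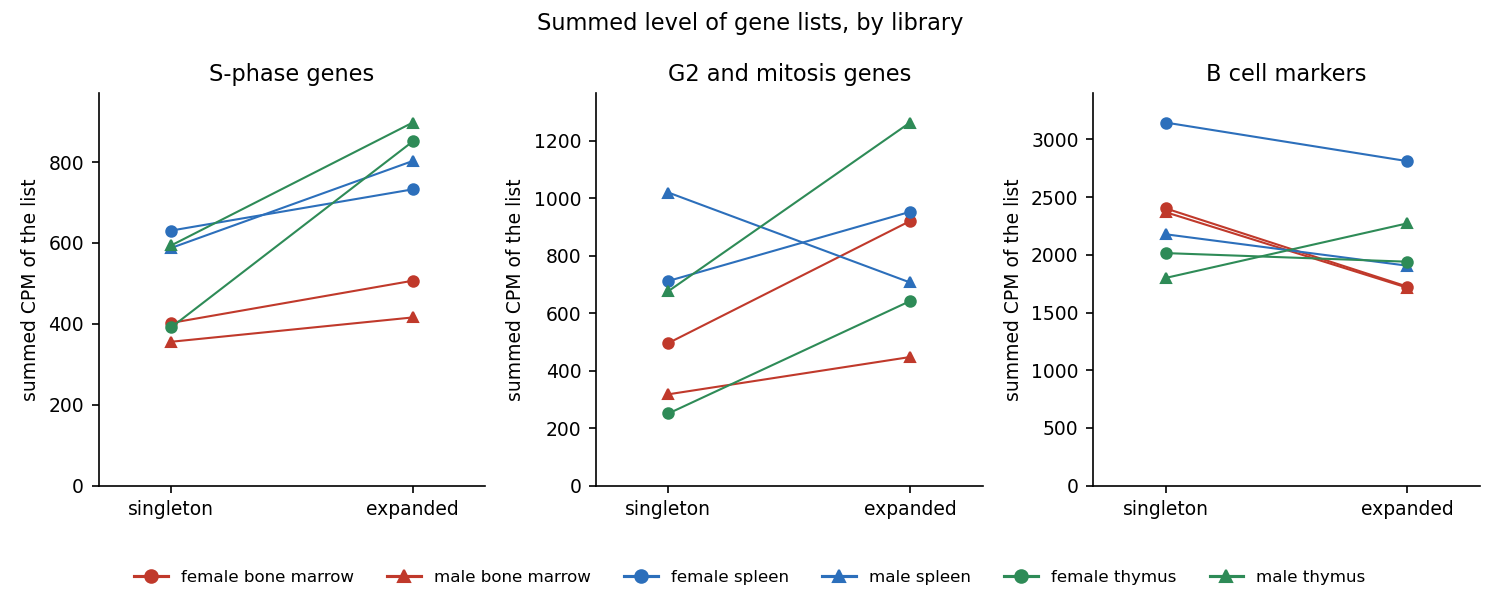
Summed CPM (y axes) of the S-phase, G2 and mitosis, and B cell marker lists in singleton and expanded cells, with a line for each library. S-phase genes are higher in expanded cells of 6 of 6 libraries, G2 and mitosis genes in 5 of 6, and B cell markers are lower in 5 of 6.

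Markers of B cells that have not become ASCs leaned lower. All 9 tested genes of 16 had a negative log2 fold change, 4 at an unadjusted p under 0.05 and none past the adjusted threshold, with a median of -0.28. The sum was lower in expanded cells of 5 of 6 libraries, for example 1725 against 2403 CPM in female and 1715 against 2370 CPM in male bone marrow, and it was 2273 against 1800 CPM in male thymus. Bank1, an adaptor of B cell receptor signalling, was at 22.9 to 57.1 CPM against 34.5 to 67.4 CPM and lower in 6 of 6 libraries (log2 fold change -0.52, SE 0.16, edgeR adjusted p = 0.550). Ms4a1, which encodes CD20, was also lower in 6 of 6 (-0.41). Ebf1, a transcription factor of B cell identity, was lower in male bone marrow and both spleen libraries and had 0 UMIs in expanded cells of female thymus (-0.71). It was higher in female bone marrow and in male thymus (18.0 against 10.4 CPM).

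The ASC programme itself showed no consistent difference. ASC markers had 7 of 15 tested genes positive and 0 at an unadjusted p under 0.05 (median -0.02). The secretory and ER stress genes had 9 of 25 positive and also 0 (median -0.05). Summed ASC markers were higher in expanded cells of 3 libraries and lower in 3. In thymus the sum was 55178 against 82601 CPM in females and 108395 against 71351 CPM in males. Survival receptors and BCL2 family genes were negative in 15 of 18 (median -0.14), with Bcl2, which blocks apoptosis (-0.37), and the inhibitory receptor Lag3 (-0.39) at an unadjusted p under 0.05. Of the homing list 13 genes were tested and 2 were called, Cxcr3 among them, and Ccr10, a chemokine receptor of IgA-secreting cells, did not pass at -0.61 on the log2 scale (SE 0.27, edgeR adjusted p = 0.885), was lower in 3 libraries and higher in 3, both thymus libraries among them, and was at -0.095 without male bone marrow. Immediate early genes were positive in 4 of 11 (median -0.07). Among them Ier2 was lower in 6 of 6 libraries (-0.54, SE 0.15, edgeR adjusted p = 0.346). Fosb (-0.62) was lower in 4 of 6, not in thymus, and at -0.31 without female bone marrow. Ribosomal protein genes were positive in 77 of 80 (median 0.13) and mitochondrial genes negative in 13 of 13 (median -0.12), while their summed levels were higher in expanded cells of 3 and 2 of 6 libraries.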

How the data were processed

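Sorted ASCs of 3 tissues from pools of 3 mice were profiled in 6 GEX and 6 VDJ libraries. UMI counts per gene and barcode, and reads and UMI counts per assembled contig, were deposited by the authors as raw counts with no normalization. Cell Ranger 6.0.2 and the build mm10 (GRCm38) are named in the submitters' processing notes. The filtered matrices and filtered contig tables were used.

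Clones were assigned as described in the report, and each VDJ library was linked to the GEX library of its tissue that shared most barcodes. GEX cells needed a mitochondrial share below 10%, at least 200 genes and at least 500 UMIs once immunoglobulin genes were set aside, and each group at least 10 cells in a library. Cells with more than 1 heavy-chain contig were left out, an alternative kept only cells with 1 light chain contig, and no doublet caller was run. Counts were summed per library and group and tested with edgeR 4.0.16 (R 4.3.3; quasi-likelihood, filterByExpr, TMM, library as a block because both sums come from the same library), with Benjamini-Hochberg adjustment at 0.05. The script was tested on simulated data. The 6 libraries differ in tissue and sex, so p-values measure the spread over them. Whether the tissues of a sex come from the same mice is not stated in the labels; if they do, the 6 libraries hold 2 independent pools and these p-values may be too small. No library of a tissue and sex was repeated. Shares and medians were compared with exact two-sided sign-flip permutation tests over libraries (scipy 1.17.1), adjusted over 22 measures. V mismatches are edit distances (edlib 1.3.9.post1) of the framework 1 to framework 3 sequence to the germline transcript of the assigned Ighv gene in GENCODE M21. This measure, the light V gene sharing and 4 others of the 22 measures were added after the files were seen. DESeq2 1.42.0 was an alternative.

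The members, gene lists and tests were chosen with earlier results of these data known. Named genes were those past the threshold, up to 5 with the smallest p in a direction where fewer than 5 passed with the same sign in every library, and up to 4 genes of each list with the smallest p and at least 10 CPM. These were 76 genes, narrowed after their values were seen to the 30 at an unadjusted p under 0.05, of which 3 are not reported here. Clones named were the largest of each library and the 6 largest with several CDR3 nucleotide sequences; others were picked after their values were seen.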

Additional observations from a re-analysis of the deposited data

Results flagged for a closer look

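Differences between expanded and singleton cells went in opposite directions in both libraries of one tissue and both of another for several measures. The same 20 results were examined for each pair of tissues. With so few libraries per tissue such signs often arise by chance, and the number expected was not worked out. These flags are therefore not read as differences between tissues, which were not tested. As means of the sexes, the IgM share was 14.1 percentage points higher in expanded cells of bone marrow (26.8 in females, 1.51 in males) and differed by -20.1 points in spleen. In male bone marrow 15.2% of expanded cells and 6.62% of singletons had no constant gene and count in this share. The IgA share differed by -15.5 points in bone marrow and 3.59 in spleen. The share of cells with no light chain differed by -1.50 points in bone marrow and 2.59 in thymus. The median UMI count per heavy-chain contig differed by -75.8 in bone marrow (-1.5 in males) and 190 in spleen. The ribosomal share of UMIs differed by 0.255 points in bone marrow, -0.957 in spleen and 0.915 in thymus. Mean V segment mismatches differed by 0.400 in bone marrow (0.796 in females, 0.0039 in males), 0.657 in spleen and -0.721 in thymus (-0.102 in males).

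Among the differences of the 6 libraries, a single library stood apart in 5 of 20 results examined, where chance flags about 1 in 20 groups. The share of light V UMIs from the leading light V gene was 39.1 points higher in expanded cells of female thymus, the library with the fewest UMIs. In male bone marrow the log2 ratio of Apoe was -2.48. In female thymus the log2 ratios with a pseudocount of 1 CPM were -4.52 for Cd36, -4.92 for Gm48370 and -4.92 for Il5ra, each from 0 UMIs in expanded cells against 3, 4 and 4 UMIs in singletons, which is within the limit that a count of 0 allows there.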

How the results depend on the processing

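The count of 7 genes called was 26 with clones in more than 1 VDJ library kept (6 shared with the 7), 18 without thymus, 30 without a filter on low counts, 4 with at least 1000 UMIs per cell or with matching GEX light V genes, 3 with clones by nucleotide CDR3 or thinned sums, 2 without the largest clones, in IgM cells, in IgG cells or with DESeq2, and 1 with at most 3 cells per clone or with clones defined also by light chain. It was 0 in IgA cells (2 libraries, 140 genes at an unadjusted p under 0.05). Leaving out each library gave 2 to 12. Without the library block, which pairs both sums of a library, edgeR called 0 genes, with 55 at an unadjusted p under 0.05. The 6 called genes named in the report kept their sign in every alternative that could fit them.

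Several differences near 0 changed sign. IgM was 3.77 points with clones in more than 1 VDJ library kept and -7.32 to 3.82 without single libraries. Lambda was 0.896 with clones of at least 2 cells, 1.14 with clones weighted equally, 0.0600 without near singletons and -1.56 to 0.502 without single libraries. The share with no light chain was -0.318 and -1.30 with at least 2 and 5 cells, -0.630 with multi-library clones, -2.08 in filtered GEX cells and -0.636 to 0.798 without single libraries. Heavy-chain UMIs were -1.20 to 73.6 without single libraries. With clones also by light chain, the share of cells in GEX was 2.02, UMIs outside immunoglobulin genes 62.3 (62.25) and the ribosomal share -0.243. The latter was -0.0412 with at least 2 cells, -0.124 with multi-library clones, -0.0274 without the largest clones and -0.223 to 0.445 without single libraries. V mismatches were -0.0534 with at least 2 cells, -0.0943 by nucleotide CDR3, -0.0294 with multi-library clones, -0.00184 with IGHV9-3 clones, -0.0160 without the largest clones and -0.0292 to 0.402 without single libraries. Among genes that did not pass, at most 3 cells per clone gave -0.036 for Rrm2, -0.32 for Birc5 and -0.39 for Cdk1. IgG cells gave -0.18 for Rrm2, -0.076 for Spon1, -0.37 for Cdc20 and -0.22 for Birc5, and IgA cells -0.67 for Spon1. Lag3 was 0.0095 with multi-library clones, Ccr10 0.0043 with DESeq2 and Cd9 -0.019 with at least 5 cells. The causes were not tested. Female thymus limits depth: 0 UMIs there allow up to 44.8 CPM in expanded cells.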

Other observations

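V and J gene use was part of the clone definition and is given as a description. IGHV2 family genes were used by 10.2% of the 246 expanded clones and 5.77% of the 2270 singletons, and IGHV5 genes by 11.8% and 8.37%. IGHV6 genes went the other way, with 2.85% of expanded clones and 7.84% of singletons. IGHJ3 was used by 24.8% and 19.8% and IGHJ2 by 31.7% and 35.4%.

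The 15 clones with 10 or more cells held 0% IgA in each library. In bone marrow their IgM share was 91.7% in females (24 cells) and 75.0% in males (140 cells), where all expanded cells had 88.1% and 75.7%. It was 92.3% in female and 80.4% in male spleen (13 and 46 cells) and 95.2% and 93.5% in thymus (21 and 31 cells). In the 88-cell clone 33 cells had no constant gene assigned, and they count in the shares of male bone marrow. Of the gene lists not described above, interferon response genes had 8 of 17 tested genes positive (median log2 fold change -0.04). B-1 lineage genes were positive in 6 of 7 (median 0.14), with the tetraspanin Cd9 at 0.30, and germinal centre and memory genes in 3 of 5 (median 0.16), with the transcription factor Mef2b at 0.29. MHC class II genes were positive in 3 of 8 (median -0.01), with the peptide-loading subunit H2-DMb2 at 0.73. No gene of these lists passed the adjusted threshold of edgeR's test.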
